A study of Rattus norvegicus with 24 samples.

Results

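Combined inhalation of cigarette smoke and silica was compared with inhalation of air alone in the lungs of male Sprague-Dawley rats, using 8 of the 24 arrays of the series. The arrays were chosen by the exposure codes in their titles: 4 rats carried the codes for smoke and silica (rats 602, 603, 604 and 605) and 4 carried the codes for air by both routes (rats 102, 103, 104 and 105). Smoke plus silica rats received cigarette smoke by nose-only inhalation at 0.48 mg/L (3 hours daily, 5 days each week), and silica, a manufactured sand, by whole-body inhalation at 1 mg/m3 (18 hours daily, 7 days each week, 2 weeks). Air rats went through the same nose-only and whole-body schedules with air. The smoke schedule ran for 5 weeks by the sample protocol and for 6 weeks by the study description, which places the particle exposure in the last 2 weeks. All rats were labelled 17 weeks old. The rats of 2 further groups, 4 in each, entered some comparisons: rats given smoke by the nose-only route and air in the chamber, and rats given air by the nose-only route and silica in the chamber. RNA came from the right caudal lobe, a whole piece of lung that holds epithelium, vessels, airway wall and leukocytes together, and each array was 1 rat.

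The alveolar macrophage is the cell that clears inhaled particles: it engulfs them, moves them into lysosomes, and calls in other leukocytes with chemokines when its capacity is strained. Crystalline silica is known for damaging the lysosome of the cell that took it up, and cigarette smoke brings oxidants, tar and soot, to which cells respond with antioxidant enzymes under the transcription factor NRF2. The thin endothelium and epithelium of the gas exchange surface, the resident lymphocytes and the circadian clock of lung cells were also measured in these tissue pieces.

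All 7 lung markers that were checked, namely Sftpc, Sftpb, Sftpd, Abca3, Ager, Scgb1a1 and Cldn5, lay above the median gene in each of the 8 arrays. Rats 604, 104 and 605 stood apart from their group mates in the number of genes that differed 2-fold. Rat 604, of the smoke plus silica group, had 181 genes at least 2-fold above and 71 genes at least 2-fold below the mean of the other smoke plus silica rats, and its mean correlation with the other arrays was 0.9795. Its RNA integrity number was 8.7, against 9.2 and 9.3 in rats 603 and 605, and no number was given for rat 602. Rat 104, of the air group, had 109 genes at least 2-fold above and 29 at least 2-fold below its group mates and a mean correlation of 0.9825, and it carried heart muscle transcripts such as Myl7, an atrial myosin light chain, at a log2 level of 12.04, against 5.68 to 7.58 in the other air rats. Rat 605, of the smoke plus silica group, had 33 genes at least 2-fold above and 139 at least 2-fold below its mates, with a mean correlation of 0.9886. Rat 302, an air and sand rat with a mean correlation of 0.9444, entered only the estimate of the spread. For the main gene lists, counts are also given with 1 of the 8 rats left out, or without rat 302; apart from those without rat 604 or 104, these were added after the data were seen.

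Levels are the deposited log2 values of 1 probe set per gene, and a difference is the mean of the smoke plus silica rats minus the mean of the air rats, so that a difference of 1 is a doubling. Values are listed by rising rat number. Of 14217 genes tested, 311 rose (2.19% of the genes) and 225 fell (1.58%) in smoke plus silica lungs at a limma adjusted p under 0.05, which is 536 genes or 3.77% in all. The median difference over all genes was -0.02, and 2626 genes had an unadjusted p under 0.05. The rises were larger than the falls: 56 rises and 9 falls reached 2-fold. In 509 of the 536 genes (3.58% of the genes tested) the 2 groups of 4 did not overlap, while non-overlapping groups occurred in 17.6% of all genes, 7.64% with smoke plus silica higher and 10.0% with it lower. Without rat 604 the count was 200 (1.41% of the genes), with 153 rises (1.08%) and 47 falls (0.331%). All 536 genes kept their direction without that rat, and 195 of them still passed. Leaving out rat 102, 103, 104 or 603 gave 259, 284, 291 or 323 calls. Without rat 302, whose array enters only the spread, 1777 genes passed (12.5%), among them all 536. Without rats 302, 104 and 604 together, 586 passed (4.12%), 356 of them among the 536.

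Many genes of alveolar macrophages and phagocytes rose in smoke plus silica lungs. Of 26 measured genes of that list, 13 rose (50%, beside 3.77% of all genes that passed) and none fell. The median difference was 0.74, beside -0.02 over all genes. Because the tissue was analysed whole, more cells of a type and more RNA per cell cannot be told apart, here or below. Gpnmb, a transmembrane glycoprotein of lipid- and particle-laden macrophages, read 13.38, 13.47, 13.47 and 13.51 in smoke plus silica rats, against 11.73, 12.01, 12.02 and 11.54 in air rats. The 4 smoke plus silica rats lay close together and far above every air rat. Its difference was 1.63 ± 0.19 (SE), 3.1-fold, with an adjusted p of 5.11e-05. Cd68, a lysosomal membrane glycoprotein used as a phagocyte marker, read 11.29, 11.31, 11.63 and 11.70 with smoke plus silica, against 9.86, 10.13, 10.09 and 9.91 with air. Again the groups were fully separated, by a difference of 1.49 ± 0.19, 2.8-fold (adjusted p 8.59e-05). Lgals3, which encodes galectin-3, had the smallest adjusted p of this list, with a difference of 0.92 ± 0.10 (adjusted p 2.35e-05). Of the list 13 genes did not pass, although 24 of the 26 differences were positive. Among those 13, Apoe, Cd163, Lyz2 and Folr2 differed by -0.40, -0.09, 0.00 and 0.13, and Mrc1 by 0.81 (limma adjusted p 0.151). Leaving out 1 of the 8 rats gave 9 to 12 rises, with 9 and a median of 0.59 without rat 604, when 1.41% of all genes passed.

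Mmp12, the macrophage elastase that degrades elastic fibres, was the most changed matrix gene. It read 9.01, 9.93, 10.07 and 7.40 in smoke plus silica rats, against 6.79, 6.40, 6.85 and 6.53 in air rats. Rat 605 was lowest of the exposed rats but still above every air rat, and the exposed rats spread over a far wider range than the air rats. The difference was 2.46 ± 0.48, 5.5-fold (adjusted p 0.00565), and 2.14 without rat 604 (adjusted p 0.0325). Mreg, which encodes melanoregulin, a protein of organelle and phagosome transport, rose by 2.20 ± 0.30, 4.61-fold (adjusted p 0.000204). In that gene air rat 104 was highest of the air rats at 6.54, against 7.62 in the lowest smoke plus silica rat.

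The promoters of Gpnmb and Mmp12 are shown because both genes were among the 12 largest rises and both hold the AP-1 site TGAGTCA, in capitals here. Each run is 300 bases on the gene's own strand, 250 before and 50 after the start, from RefSeq (GRCr8): chr4:79340878-79341177, plus strand, for Gpnmb and chr8:12866402-12866701, plus strand, for Mmp12.
Gpnmb: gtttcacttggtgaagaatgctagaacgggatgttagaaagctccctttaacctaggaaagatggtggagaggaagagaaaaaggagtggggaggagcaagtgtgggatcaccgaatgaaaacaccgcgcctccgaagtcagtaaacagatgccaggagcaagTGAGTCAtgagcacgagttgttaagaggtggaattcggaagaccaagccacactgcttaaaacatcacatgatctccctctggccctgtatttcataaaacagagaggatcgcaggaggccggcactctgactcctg
Mmp12: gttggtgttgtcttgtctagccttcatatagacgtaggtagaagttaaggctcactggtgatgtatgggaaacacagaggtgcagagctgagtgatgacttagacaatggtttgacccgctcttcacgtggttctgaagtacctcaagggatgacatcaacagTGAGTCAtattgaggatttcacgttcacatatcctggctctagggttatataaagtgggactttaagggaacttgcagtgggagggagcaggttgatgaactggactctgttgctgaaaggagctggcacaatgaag
In both promoters the site begins 87 bases before the start. Retnla, also among the 12 largest rises, holds the same site 153 bases before its start, and its promoter is not shown. Both strands were searched for this site, for the E-box and for the core of the antioxidant response element. The latter are spelled out below, and neither site shown overlaps another match. The Mmp12 promoter also holds an E-box, in small letters, that begins 126 bases before the start. Promoters were matched by symbol for 11733 of the 14217 genes. TGAGTCA occurred in 4 of 20 promoters of the macrophage list (20%), in 14 of 255 promoters of the genes that rose (5.49%), in 3.8% of the promoters of all measured genes and in 4.53% of the 27457 promoters of the table. A match in these letters is a description of the sequence only, and no binding was measured.

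Lysosomal genes also rose, in smaller steps. Ctsd and Ctsk were counted in the macrophage list above. Ctsd, which encodes the lysosomal protease cathepsin D, read 13.25, 13.26, 13.32 and 13.40 in smoke plus silica rats, against 12.25, 12.49, 12.46 and 12.45 in air rats. Its difference of 0.90 ± 0.10 (adjusted p 4.87e-05) came from groups with very little spread. Ctsk, the collagen-degrading cathepsin K, rose by 1.37 ± 0.22 (adjusted p 0.00096). In a separate list of 27 measured genes for lysosomal enzymes, membrane proteins and the proton pump, 12 rose and none fell. That was 44.4%, beside 3.77% of all genes, and the median difference was 0.34. Mcoln2, an ion channel of endosomes and lysosomes, rose by 1.38 ± 0.25 (adjusted p 0.00232). Lipa, the acid lipase that splits cholesterol esters, rose by 0.65 ± 0.11 (adjusted p 0.00107), and Tpp1, a lysosomal peptidase, by 0.35 ± 0.06 (adjusted p 0.00091). Ctsz, which encodes cathepsin Z, rose by 0.83 ± 0.14 (adjusted p 0.00149). The change in Tpp1 was 1.27-fold, and its groups did not overlap. There were 8 to 10 rises with 1 of the 8 rats left out, with 8 without rat 102, 103, 105 or 604. The median was 0.31 without rat 604, when 1.41% of all genes passed.

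**Figure D1:**
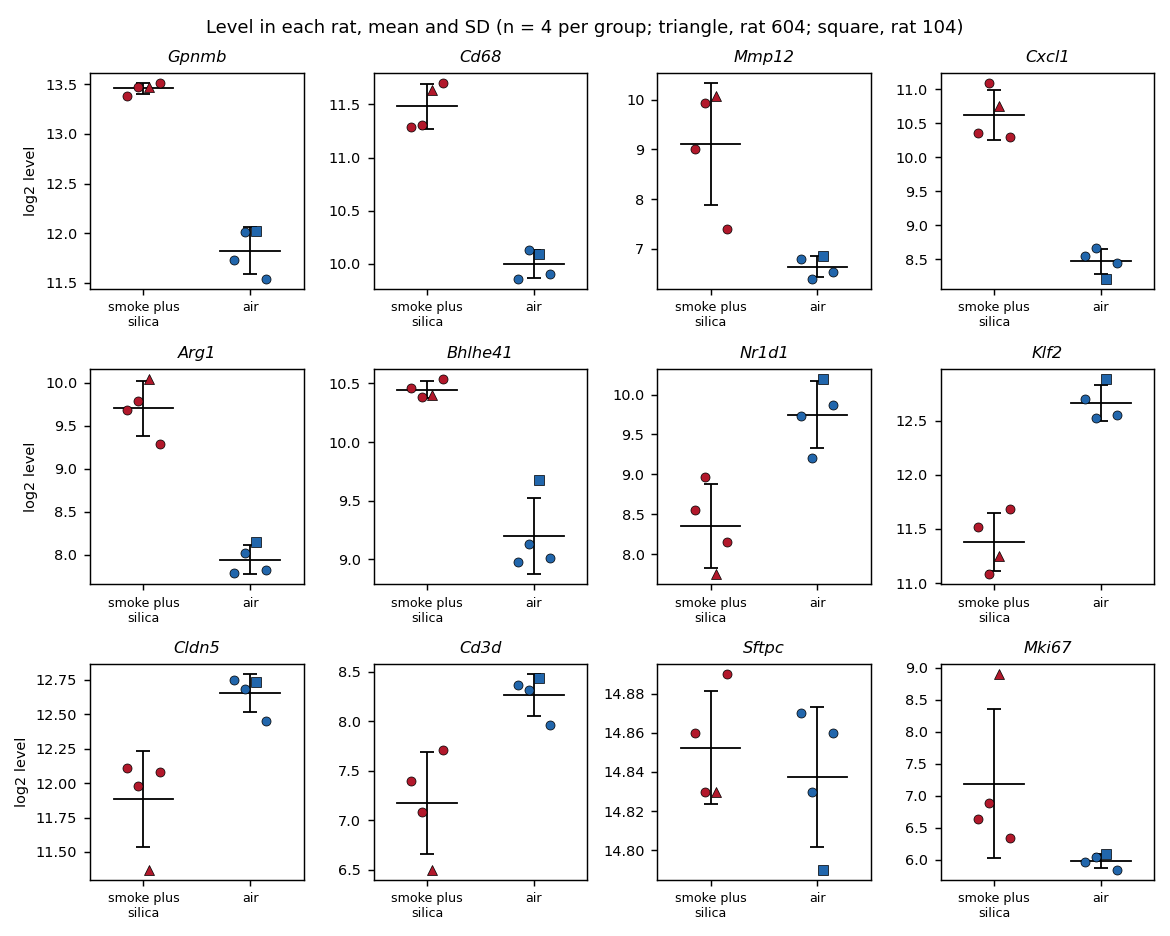
Log2 level of 12 genes (y axis, a separate scale in each panel) in the 4 smoke plus silica rats (red, left) and the 4 air rats (blue, right), with group mean (line) and SD (bar). Triangles mark rat 604 and squares rat 104. The groups are separated for Gpnmb, Cd68, Mmp12, Cxcl1, Arg1, Bhlhe41, Nr1d1, Klf2, Cldn5 and Cd3d, and also for Mki67, where rat 604 is highest at 8.90, while Sftpc stays between 14.79 and 14.89 in all 8 rats.

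Pkib, Slc47a1, Rgs1 and Ckmt1 were also among the 12 largest rises. Pkib, an inhibitor of protein kinase A, lay between 8.82 and 9.32 in smoke plus silica rats, against 7.30 to 7.81 in air rats, a fully separated rise of 1.59 ± 0.17, 3.01-fold (adjusted p 2.35e-05). Slc47a1, a membrane transporter of organic cations, rose by 1.58 ± 0.21 (adjusted p 0.000204). Rgs1, a brake on chemokine receptor signalling in leukocytes, rose by 1.58 ± 0.37 (adjusted p 0.0201), not called without rat 102, 104, 603 or 604 (adjusted p up to 0.069). Ckmt1, a mitochondrial creatine kinase, rose by 1.54 ± 0.41 (adjusted p 0.0373), not called without rat 103, 105, 603, 604 or 605 (adjusted p up to 0.126).

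Genes used as markers of macrophage polarization, and chitinases, included some of the largest changes. Of 12 measured genes of this list, which holds Nos2 of classical activation as well as genes of alternative activation, 4 rose and 1 fell. That was 41.7%, beside 3.77% of all genes. Nos2 differed by 0.03 ± 0.06 (adjusted p 0.821). Retnla, a secreted resistin-like protein of mouse type 2 responses, had the largest difference of the genes that passed. It read 13.51, 12.88, 13.81 and 11.54 in smoke plus silica rats, against 9.58, 9.93, 9.37 and 11.17 in air rats. The groups did not overlap, although exposed rat 605 came close to air rat 105. The difference was 2.92 ± 0.61, 7.59-fold (adjusted p 0.00878), and 2.63 without rat 604 (adjusted p 0.0453). Arg1, arginase 1, read 9.68, 9.79, 10.05 and 9.29 with smoke plus silica, against 7.79, 8.02, 8.15 and 7.82 with air. That difference of 1.75 ± 0.21, 3.37-fold, had an adjusted p of 5.41e-05. Chia, the acidic mammalian chitinase of the airway and alveolus, rose by 2.09 ± 0.35 (adjusted p 0.00148). One air rat, number 104, read 9.95 in Chia, against 11.90 to 12.18 in the other 3 air rats, and without it the difference was 1.57 (adjusted p 0.00109). Chi3l1, a chitinase-like protein without enzyme activity that was chosen after its values were seen, rose by 1.25 ± 0.30 (adjusted p 0.023). It did not pass once rat 103, 105, 603 or 604 was left out (adjusted p up to 0.106). Tgm2, the tissue transglutaminase, was the gene of this list that fell, by 0.79 on the log2 scale (adjusted p 0.00409).

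Some chemokines that draw neutrophils and macrophages rose, with Cxcl1 first. Of 34 measured chemokine, cytokine and growth factor genes, 7 rose (20.6%, beside 3.77% of all genes) and none fell. The median difference was 0.14. Cxcl1, a neutrophil attractant, read 10.36, 11.09, 10.75 and 10.30 in smoke plus silica rats, against 8.54, 8.66, 8.21 and 8.45 in air rats. All exposed rats lay above all air rats, by a difference of 2.16 ± 0.26, 4.48-fold (adjusted p 6.12e-05). Ccl3, which attracts macrophages and neutrophils, read 9.09, 9.12, 9.37 and 9.18, against 7.95, 8.07, 8.22 and 7.88 in air rats. This difference of 1.16 ± 0.16 (adjusted p 0.000197) was nearly the same in all 4 exposed rats. Csf2, the granulocyte and macrophage growth factor GM-CSF, rose by 0.62 ± 0.12 (adjusted p 0.00336), but its dimmer probe set differed by only 0.01. Ccl9 and Ccl6, chemokines of mouse and rat myeloid cells that were named after their values were seen, completed the 7 rises. Ccl9 read 9.62, 10.43, 9.87 and 9.33 in smoke plus silica rats, against 8.37, 8.05, 8.90 and 8.19 in air rats, and rose by 1.44 ± 0.34 (adjusted p 0.0193), a call lost without rat 102, 103, 603 or 604 (adjusted p up to 0.0709). Ccl6 rose by 0.60 ± 0.13 (adjusted p 0.011). Cxcl6 rose by 0.59 ± 0.13 (adjusted p 0.0107, and 0.057 without rat 604). Cxcl2, a close relative of Cxcl1, rose by 1.00 ± 0.26 (adjusted p 0.034), a call that ended without rat 102, 103, 104, 602, 603 or 604, with adjusted p-values up to 0.126. The list had 4 to 7 rises with 1 of the 8 rats left out, with 4 without rat 604, when 1.41% of all genes passed.

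The other 27 genes of this list did not pass, nor did Spp1 of another list. Ccl2, the monocyte attractant, read 7.25, 8.25, 10.02 and 7.55 in smoke plus silica rats, against 5.92, 6.89, 7.11 and 7.05 in air rats. The groups did not overlap, but rat 604 alone reached 10.02, and the difference of 1.52 ± 0.60 had an adjusted p of 0.168. Spp1, which encodes the secreted matrix protein osteopontin, read 8.24, 9.08, 11.86 and 9.45, against 6.79, 7.58, 7.30 and 7.98 in air rats. Here too rat 604 was far above its mates, and the difference of 2.25 ± 0.86 had an adjusted p of 0.155. Il1b, which encodes interleukin-1 beta, differed by 0.05 ± 0.36 (adjusted p 0.96).

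Among 15 measured neutrophil granule and acute-phase genes, 2 rose (13.3%, beside 3.77% of all genes) and none fell. The median difference was 0.26, and 10 of the 15 differences were positive. Cxcr2, Csf3r, Mmp8, Mmp9 and Np4, all of this list, differed by -0.04, -0.11, -0.14, -0.27 and -0.12 and did not pass. S100a8 differed by 0.26 (adjusted p 0.797). Cxcr1, a receptor for neutrophil chemokines, read 8.74, 8.72, 8.50 and 9.26 with smoke plus silica, against 7.19, 7.50, 7.57 and 7.11 with air. It rose by 1.46 ± 0.22, 2.75-fold (adjusted p 0.000608), in groups that did not overlap. Saa3, an acute-phase protein, read 8.26, 9.70, 11.63 and 7.45 with smoke plus silica, against 7.25, 6.91, 6.45 and 6.89 with air. Exposed rats 604 and 605 lay far apart, and the call at 2.38 ± 0.64 (adjusted p 0.0389) ended without rat 102, 103, 104, 105, 603 or 604, with adjusted p-values up to 0.162. Lcn2, which encodes the iron-binding granule protein lipocalin 2, read 13.55, 14.15, 14.23 and 12.66, against 11.22, 11.48, 6.20 and 10.27 with air. All exposed rats were above all air rats, but air rat 104 was far below its mates, and the difference of 3.86 ± 1.20 did not pass (adjusted p 0.0767). Without rat 104 it was 2.66 (adjusted p 0.262). S100a9, a calcium-binding protein abundant in neutrophils, differed by 0.97 ± 0.41 in overlapping groups (adjusted p 0.198). Itgam, the integrin alpha chain of neutrophils and recruited macrophages, differed by 0.97 ± 0.31 (adjusted p 0.0903, and 0.0493 without rat 302 or 0.0358 without rat 602). Lcn2 passed without rat 302 (adjusted p 0.0403). Of this list 4 genes rose without rat 302, when 12.5% of all genes passed. Between 1 and 3 rose with 1 of the 8 rats left out.

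Of 13 measured genes of the complement list, C3 was the gene that passed (7.69%, beside 3.77% of all genes). Without rat 302, when 12.5% of all genes passed, 2 genes of the list did. C3, the central complement protein, read 12.86, 13.23, 12.92 and 12.16 in smoke plus silica rats, against 11.70, 10.89, 11.51 and 11.73 in air rats. The lowest exposed rat, 605, exceeded the highest air rat, and the difference was 1.34 ± 0.20, 2.52-fold (adjusted p 0.000496). C4bpa, a chain of the C4b-binding protein that restrains complement, was not on that list and was named after its values were seen. It read 10.66, 10.91, 11.09 and 10.45 in smoke plus silica rats, against 9.74, 9.64, 8.96 and 9.06 in air rats, and rose by 1.43 ± 0.20 (adjusted p 0.000317). Card14, a scaffold protein that activates NF-kappa B, had one of the smallest adjusted p-values of the comparison. It read 9.12, 8.69, 8.70 and 8.92, against 7.90, 7.72, 7.54 and 7.64 in air rats, a rise of 1.16 ± 0.12 (adjusted p 2.35e-05).

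Antioxidant genes rose in part. Of 31 measured genes of glutathione metabolism and the NRF2 response, 10 rose (32.3%, beside 3.77% of all genes) and none fell. The median difference was 0.41. Sod2, the mitochondrial superoxide dismutase, read 11.29, 11.76, 11.66 and 11.22 with smoke plus silica, against 10.38, 10.28, 10.48 and 10.62 with air. Its groups were separated by a difference of 1.04 ± 0.17 (adjusted p 0.00119). Gsta1, a glutathione transferase, rose by 0.57 ± 0.10 (adjusted p 0.00196), and it belongs to a family whose near-identical members may share probes. Srxn1, sulfiredoxin, rose by 1.09 ± 0.23 (adjusted p 0.0113, and 0.0591 without rat 604). Its other probe sets differed by 0.85 and -0.12. Gsr, glutathione reductase, rose by 0.54 ± 0.13 (adjusted p 0.0217), with the call lost without rat 102, 103, 104 or 604 (adjusted p up to 0.103). Nqo1, a quinone reductase and a common readout of NRF2, read 11.55, 11.26, 12.72 and 11.20, against 10.93, 10.98, 10.97 and 11.11 in air rats. All exposed rats were above all air rats, rat 604 by far the most, and the difference of 0.69 ± 0.25 did not pass (adjusted p 0.133). Hmox1, the inducible haem oxygenase, differed by 0.81 ± 0.23 with an adjusted p of 0.0503, and of 0.0273 without rat 302. Leaving out 1 of the 8 rats gave 2 to 11 rises, with 5 without rat 104. There were 2, with a median of 0.30, without rat 604, when 1.41% of all genes passed. The core of the antioxidant response element, TGACNNNGC, occurred in 8 of 28 promoters of this list (28.6%), beside 14.4% of the promoters of all measured genes.

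None of 10 measured aryl hydrocarbon receptor genes passed by limma, with a median difference of 0.10. Without rat 302, when 12.5% of all genes passed, 2 of them rose. Cyp1a1, the smoke-inducible oxidase of polycyclic hydrocarbons, read 8.32, 7.50, 7.63 and 7.16 in smoke plus silica rats, against 9.04, 8.84, 7.76 and 8.31 in air rats. The groups overlapped, with a difference of -0.83 ± 0.32 (adjusted p 0.163). Cyp1b1, a related oxidase, differed by -0.13 ± 0.25 (adjusted p 0.831).

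**Figure D2:**
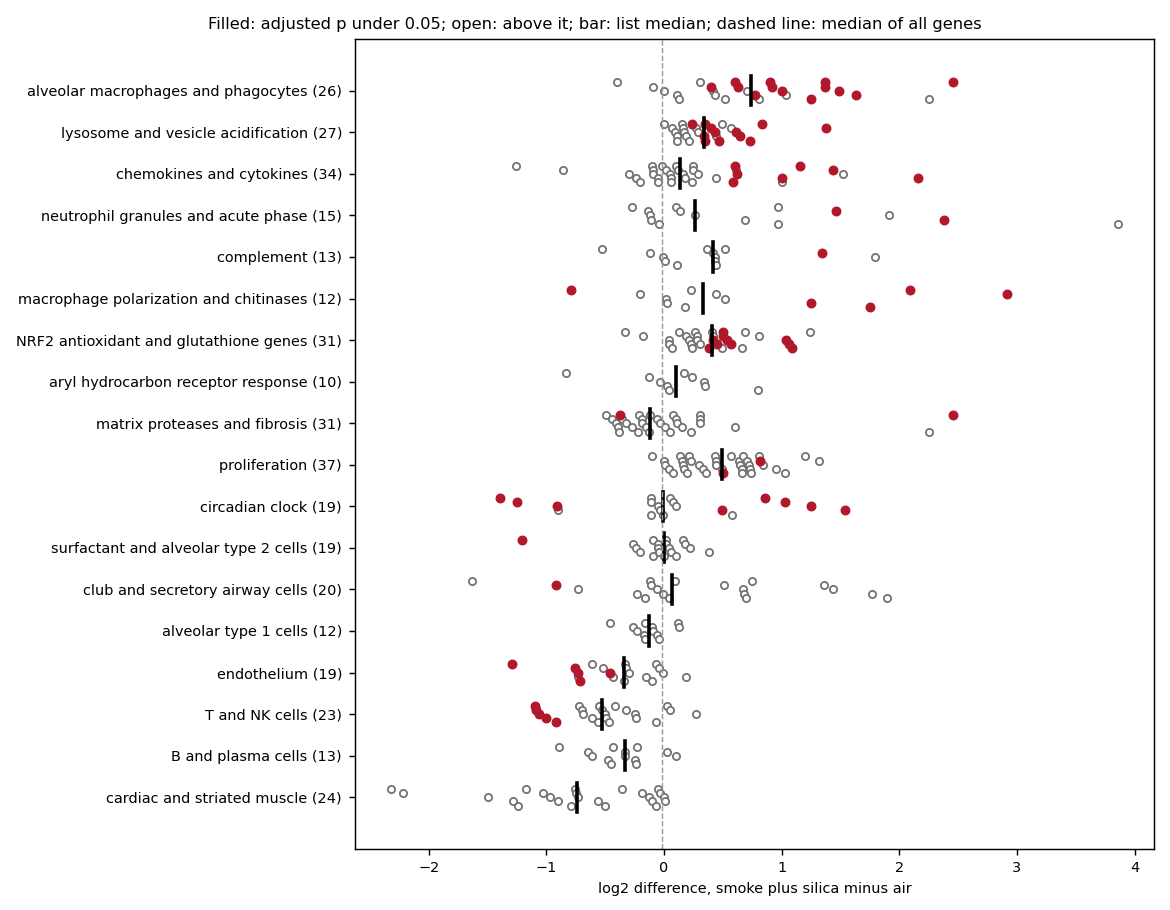
Log2 difference, smoke plus silica minus air (x axis), of each measured gene in 18 gene lists (y axis, number of measured genes in brackets). Filled points passed an adjusted p of 0.05, open points did not, the black bars are list medians and the dashed line is the median of all genes at -0.02. Filled points lie to the right in the macrophage, lysosome, chemokine and antioxidant lists, to the left in the endothelium and T and NK cell lists, and on both sides in the clock list.

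Clock genes moved in both directions. Of 19 measured circadian clock genes, 5 rose and 3 fell (42.1%, beside 3.77% of all genes), with a median difference of -0.01. Nr1d1, which encodes the clock repressor REV-ERB alpha, read 8.55, 8.97, 7.75 and 8.16 in smoke plus silica rats, against 9.73, 9.20, 10.20 and 9.87 in air rats. Every exposed rat was below every air rat, and the fall was the largest of the comparison among genes that passed, at -1.39 ± 0.22, 2.62-fold lower (adjusted p 0.000654). Per1, a period gene that also responds to glucocorticoids, read 8.59, 8.29, 8.63 and 9.08, against 9.57, 9.69, 9.47 and 9.49 in air rats. It differed by -0.91 ± 0.20 (adjusted p 0.0123, and 0.0512 without rat 603). Npas2, a partner of BMAL1 in the activating complex, differed by -1.25 ± 0.30 (adjusted p 0.0232), above the threshold once rat 102, 103, 604 or 605 was left out (up to 0.0907). Bmal1 itself read 6.66, 6.66, 7.14 and 6.96, against 8.27, 8.63, 6.76 and 7.37 in air rats. Air rat 104 lay among the exposed rats, and the difference of -0.90 ± 0.28 did not pass (adjusted p 0.076). Without rat 104 it was -1.23 and passed (adjusted p 0.00619), and without rat 302 the adjusted p was 0.0368.

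Bhlhe40, Bhlhe41 and Cry1, which encode repressors of the clock, rose, while Cry2, Per3, Nr1d2 and Nfil3 differed by -0.05, -0.11, -0.01 and -0.03 and did not pass. Bhlhe40, a repressor also induced by stress and cytokines, read 8.98, 8.26, 8.88 and 9.08 with smoke plus silica, against 7.23, 7.23, 7.21 and 7.39 with air. The 4 air rats were almost identical, and the difference was 1.54 ± 0.20, 2.9-fold (adjusted p 9.37e-05). Bhlhe41, its close relative, read 10.46, 10.38, 10.40 and 10.54, against 8.98, 9.13, 9.68 and 9.01 in air rats. Its difference was 1.25 ± 0.15, 2.37-fold (adjusted p 7.03e-05), and 1.41 without air rat 104. Cry1, a cryptochrome, rose by 0.86 ± 0.16 (adjusted p 0.00415). Per2 and Wee1 were named after their values were seen. Per2 rose by 1.03 ± 0.22 (adjusted p 0.0102), but its other probe set, at a mean log2 level of 8.44, differed by only 0.11. Wee1, a cell cycle kinase under clock control, rose by 0.49 ± 0.13 (adjusted p 0.0387), a call that ended without any rat but 104 (adjusted p up to 0.146). The time of day of tissue collection is not given in the sources used here.

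The promoters of Bhlhe40 and Bhlhe41 are shown because both hold the E-box CACGTG, the sequence that the CLOCK, NPAS2 and BMAL1 proteins bind in mammals. The E-box is in capitals, with the same window and source as above: chr4:143174200-143174499, plus strand, for Bhlhe40 and chr4:180569306-180569605, minus strand, for Bhlhe41.
Bhlhe40: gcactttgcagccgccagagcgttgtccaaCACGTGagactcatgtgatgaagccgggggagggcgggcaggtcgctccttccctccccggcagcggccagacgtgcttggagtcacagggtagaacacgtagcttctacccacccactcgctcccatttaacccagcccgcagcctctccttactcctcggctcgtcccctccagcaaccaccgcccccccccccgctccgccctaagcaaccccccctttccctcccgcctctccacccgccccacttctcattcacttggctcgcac
Bhlhe41: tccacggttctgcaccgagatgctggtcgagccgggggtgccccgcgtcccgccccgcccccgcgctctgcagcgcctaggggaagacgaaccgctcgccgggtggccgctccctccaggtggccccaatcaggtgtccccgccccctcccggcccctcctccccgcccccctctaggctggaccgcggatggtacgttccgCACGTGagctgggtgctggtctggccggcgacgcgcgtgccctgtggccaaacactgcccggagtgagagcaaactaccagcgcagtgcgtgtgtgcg
The E-box begins 220 bases before the start in Bhlhe40 and 48 bases before it in Bhlhe41, with no overlap with another match. CACGTG occurred in 3 of 16 promoters of the clock list (18.8%), in 4 of 22 of the lysosome list (18.2%), in 24 of 255 of the genes that rose (9.41%) and in 11 of 173 of the genes that fell (6.36%). Its share was 8.92% over the promoters of all measured genes.

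Part of the endothelial genes fell. Of 19 measured genes, 5 fell (26.3%, beside 3.77% of all genes) and none rose, and the median difference was -0.34. Among the 14 that did not pass, Pecam1, Sox17, Flt1 and Emcn differed by -0.01, -0.04, -0.07 and -0.10. Calcrl had the 1 positive difference of the list, 0.19, and Eng differed by -0.73 (adjusted p 0.0535). Klf2, a transcription factor that endothelium maintains under blood flow and that naive T cells also express, read 11.52, 11.08, 11.25 and 11.68 in smoke plus silica rats, against 12.70, 12.53, 12.89 and 12.55 in air rats. The groups were separated by a difference of -1.29 ± 0.18, 2.44-fold lower (adjusted p 0.000235). The other probe sets of Klf2 were all lower too, by differences between -1.60 and -0.07. Klf4, a related factor, read 10.99, 11.04, 10.56 and 11.11, against 11.69, 11.74, 11.66 and 11.55 in air rats (difference -0.73 ± 0.10, adjusted p 0.000317). Cldn5, the tight junction protein of endothelium, read 12.11, 11.98, 11.37 and 12.08, against 12.75, 12.68, 12.73 and 12.45 in air rats. The difference was -0.76 ± 0.15 (adjusted p 0.00693), and -0.59 without rat 604, which was lowest (adjusted p 0.0308). Ramp2, part of the adrenomedullin receptor, differed by -0.71 ± 0.17 (adjusted p 0.02), a call lost without rat 102, 103 or 104 (adjusted p up to 0.0591). Egfl7, a secreted endothelial protein named after its values were seen, differed by -0.46 ± 0.12 (adjusted p 0.0331), a call lost without any rat but 104 and 605 (adjusted p up to 0.119). Its other probe set differed by -0.25. With 1 of the 8 rats left out, 3 to 7 genes fell, with 3 without rat 102 or 103 and 4 without rat 104 or 604. Without rat 604, 1.41% of all genes passed.

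Further falls lay in lung mesenchymal, epithelial and signalling genes. Foxf1, a transcription factor of lung mesenchyme and capillaries, read 10.02, 9.83, 8.89 and 10.16 in smoke plus silica rats, against 10.63, 10.83, 10.67 and 10.50 in air rats. Rat 604 was lowest, and the difference of -0.93 ± 0.20 (adjusted p 0.0107) was -0.65 without it (adjusted p 0.0251). Slc29a1, a nucleoside transporter, read 10.97, 10.73, 9.53 and 11.01, against 11.69, 11.69, 11.56 and 11.56 in air rats, and differed by -1.07 ± 0.22 (adjusted p 0.00878) or by -0.72 without rat 604 (adjusted p 0.00703). Ppp1r1b, which encodes a phosphatase inhibitor under cyclic AMP control, differed by -0.93 ± 0.16 (adjusted p 0.00138). Hhip, the decoy receptor of hedgehog ligands, read 6.48, 6.32, 5.66 and 6.66, against 7.75, 7.98, 6.87 and 7.38 in air rats. Its groups did not overlap, and the difference of -1.21 ± 0.28 (adjusted p 0.0163) was not called without rat 102, 103 or 604 (adjusted p up to 0.0813). Spon2, a secreted matrix protein, differed by -1.25 ± 0.28 (adjusted p 0.0153), also lost without rat 102, 103 or 604 (adjusted p up to 0.0672). Cyp4b1, an oxidase of club and alveolar type 2 cells, differed by -0.92 ± 0.23 (adjusted p 0.0307), lost without rat 102, 103, 104, 105 or 604 (adjusted p up to 0.133).

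Calls among markers of the alveolar and airway epithelium were near the share over all genes, 3.77%. Of 19 surfactant and type 2 cell genes Hhip passed (5.26%), and of 20 club and secretory cell genes Cyp4b1 (5%), with list medians of 0.00 and 0.07. None of 12 type 1 cell genes or 10 ciliated cell genes passed by limma. Without rat 302, when 12.5% of all genes passed, 2 and 1 of them fell. Sftpc, surfactant protein C, read 14.86, 14.83, 14.83 and 14.89 in smoke plus silica rats, against 14.87, 14.83, 14.79 and 14.86 in air rats. These values, near the top of the arrays' scale, differed by 0.02 ± 0.04 (adjusted p 0.885). Scgb1a1, the club cell secretory protein, differed by -0.11 ± 0.06 (adjusted p 0.333). Ager, the type 1 cell receptor RAGE, was lower in every exposed rat at 12.95, 13.16, 13.03 and 13.21, against 13.37, 13.28, 13.33 and 13.40 in air rats. That difference of -0.26 ± 0.08 did not pass (adjusted p 0.0801, and 0.0328 without rat 302). Bpifa1, a secreted protein of the larger airways, varied within groups. It read 10.32, 7.73, 10.39 and 7.03 in smoke plus silica rats, against 6.93, 7.03, 11.77 and 6.94 in air rats. Krt5, a basal cell keratin, read 8.69 in rat 604 and 5.45 to 5.66 in the other exposed rats, against 5.36 to 6.29 in air rats. Mean levels of the ciliated cell list were 9.86, 9.92, 9.65 and 8.97, against 9.57, 9.51, 9.53 and 9.50 in air rats. Those of the club and secretory cell list were 9.29, 9.06, 9.40 and 8.21, against 8.55, 8.48, 9.37 and 8.36. How much airway each tissue piece held was not tested.

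Genes of the T cell receptor complex fell, and rat 604 was lowest. Of 23 measured genes, 5 fell (21.7%, beside 3.77% of all genes) and none rose, and the median difference was -0.53. The genes that fell were Cd3d, Cd3e, Cd3g and Cd247, which encode chains of the T cell receptor complex, and Cd5, a T cell surface protein. Cd3d read 7.40, 7.08, 6.50 and 7.71 in smoke plus silica rats, against 8.36, 8.31, 8.43 and 7.96 in air rats. The groups did not overlap, and the difference was -1.09 ± 0.23 (adjusted p 0.00878), or -0.87 without rat 604 (adjusted p 0.0444). Cd5 differed by -1.10 ± 0.25 (adjusted p 0.0174), a call lost without rat 104 or 604 (adjusted p up to 0.0865). Cd3g fell by 1.00 on the log2 scale (SE 0.24, adjusted p 0.0218). Cd3e differed by -1.06 ± 0.26 (adjusted p 0.0228). Cd247, named after its values were seen, differed by -0.92 ± 0.23 (adjusted p 0.0272). Each of those 3 calls ended without rat 102, 103, 104, 603 or 604, with adjusted p-values up to 0.104, 0.11 and 0.117. Without rat 604, when 1.41% of all genes passed, only 1 of the 23 genes, Cd3d, fell, and the median was -0.24. Without air rat 104 also 1 gene fell, and without rat 302, when 12.5% of all genes passed, 10 genes did, both with a median of -0.53. Leaving out 1 of the 8 rats gave 1 to 8 falls. Rat 604 lay below all its group mates in 19 of the 23 genes (82.6%), beside 26.1% of all genes. The part of its tissue piece in these falls was not tested. None of 13 B and plasma cell genes passed by limma, with a median of -0.33. Without rat 302, when 12.5% of all genes passed, 2 of them fell.

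Proliferation genes stood highest in rat 604. Of 37 measured genes, 2 rose (5.41%, beside 3.77% of all genes) and none fell. The median difference was 0.49, and 35 of 37 differences were positive. Rat 604 lay above all its group mates in 35 of the 37 genes (94.6%), beside 36.4% of all genes. Mki67, the marker of cycling cells, read 6.63, 6.88, 8.90 and 6.34 in smoke plus silica rats, against 5.96, 6.04, 6.09 and 5.84 in air rats. The other exposed rats were also above every air rat, but the difference of 1.20 ± 0.40 did not pass (adjusted p 0.0959, and 0.0475 without rat 302 or 0.0436 without rat 605). Aurka, a mitotic kinase, rose by 0.50 ± 0.13 (adjusted p 0.0389), a call lost without rat 102, 104, 105, 602 or 604 (adjusted p up to 0.174). Hmmr, a hyaluronan receptor of dividing cells, rose by 0.82 ± 0.23 (adjusted p 0.0456), lost without rat 102, 103, 104, 105, 603 or 604 (adjusted p up to 0.15). Its other probe set, at a mean log2 level of 5.44 against 5.54, differed by 0.36. Without rat 604 no gene of the list passed, and the median was 0.22. Leaving out 1 of the 8 rats gave 0 to 7 rises, with 0 without rat 102, 104, 105 or 604. Without rat 302 there were 9, when 12.5% of all genes passed.

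**Figure D3:**
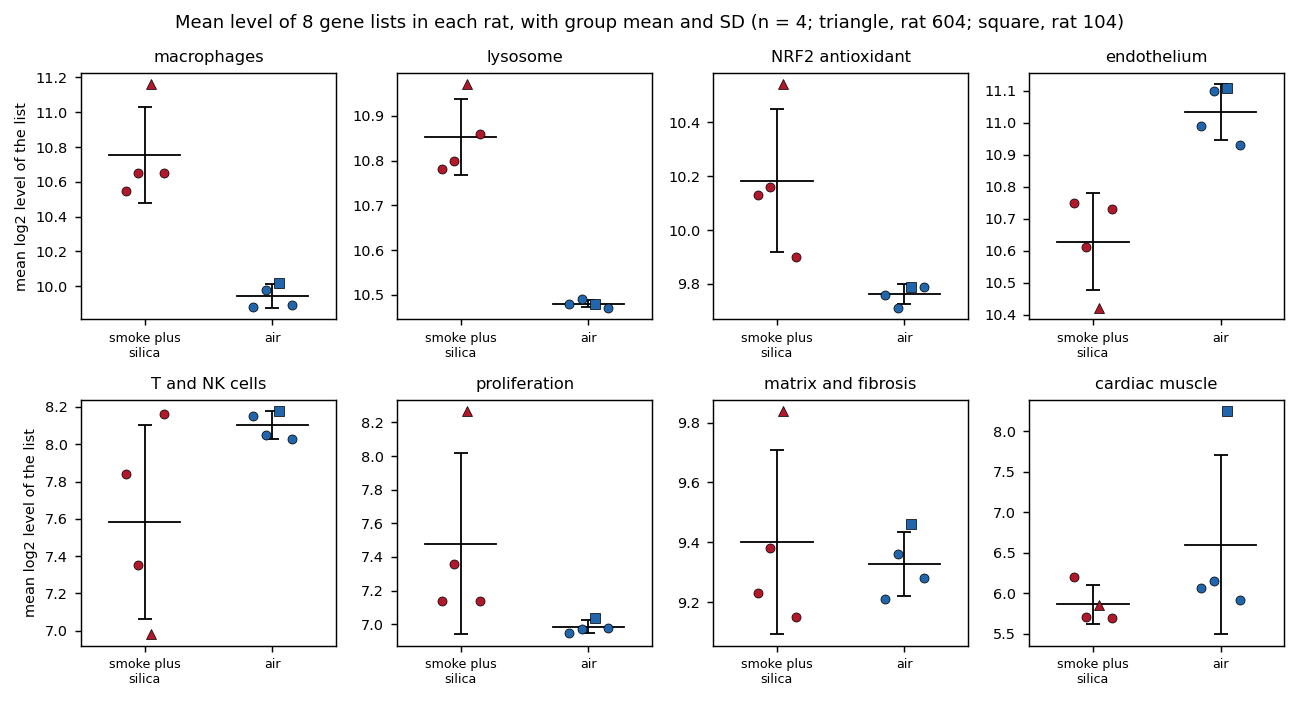
Mean log2 level of 8 gene lists (y axis, a separate scale in each panel) in the 4 smoke plus silica rats (red, left) and the 4 air rats (blue, right), with group mean (line) and SD (bar). Rat 604 (triangle) is the highest exposed rat for macrophages, lysosome, NRF2, proliferation and matrix, and the lowest for endothelium and T and NK cells. Rat 104 (square) has a cardiac muscle mean of 8.25, against 5.92 to 6.15 in the other air rats.

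Set beside 3.77% of all genes, 6.45% of the matrix list, 18.8% of the glucocorticoid list, 15% of the immediate early list and 4.55% of the endoplasmic reticulum stress list passed. The last of these had 3 rises without rat 302, when 12.5% of all genes passed. Among 31 matrix protease and fibrosis genes, Mmp12 rose and Col5a1, a fibrillar collagen, differed by -0.37 ± 0.10 (adjusted p 0.0453, up to 0.172 with any rat but 105 left out). Col1a1, the main collagen chain of scar, read 9.18, 9.61, 10.61 and 8.75 in smoke plus silica rats, against 9.57, 9.95, 10.64 and 9.43 in air rats, in overlapping groups (adjusted p 0.675). Of 16 glucocorticoid and metallothionein genes 3 fell, namely Per1, Klf9 and Nfkbia. Leaving out 1 of the 8 rats gave 0 to 2 falls in that list. There were 2 rises and 6 falls without rat 302, when 12.5% of all genes passed. Klf9, a glucocorticoid-induced transcription factor, differed by -0.60 ± 0.16 (adjusted p 0.0342), lost without rat 102, 103, 105, 603, 604 or 605 (adjusted p up to 0.15). Nfkbia, the inhibitor of NF-kappa B, differed by -0.54 ± 0.14 (adjusted p 0.0377), lost without any rat but 605 (adjusted p up to 0.111). Of 20 immediate early genes, Egr2 and Myc rose and Zfp36 fell. Egr2, a transcription factor of activated macrophages, rose by 0.99 ± 0.16 (adjusted p 0.00109), and its dimmer probe set by 0.35. Myc rose by 0.58 ± 0.12 (adjusted p 0.00861). Zfp36, which encodes an RNA-binding protein that destabilises cytokine messages, differed by -0.59 ± 0.15 (adjusted p 0.0261), lost without rat 102, 104, 105, 602, 603 or 604 (adjusted p up to 0.0871). Psat1, an enzyme of serine synthesis, was the gene that rose among 22 endoplasmic reticulum and amino acid stress genes, by 0.88 ± 0.18 (adjusted p 0.00878). Gata2 fell among 14 mast cell and eosinophil genes (difference -0.73 ± 0.17, adjusted p 0.0174, up to 0.085 without rat 103, 104, 603 or 604). Its dimmer probe set differed by -0.12. No gene passed by limma in the interferon, antigen presentation, heat shock, cholesterol, iron, smooth muscle, erythroid, heart muscle, or mesothelium and adipocyte lists. Without rat 302, when 12.5% of all genes passed, 2 antigen presentation genes rose and 3 fell, and 2 iron genes rose. In the same fit 1 interferon gene and 1 heart muscle gene fell.

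Each exposure alone was read beside the combination for the same genes. These comparisons share the 4 air rats with the one above, so their values are only set side by side. Smoke alone against air had 108 rises and 19 falls (0.893% of the genes), and silica alone against air had 20 rises and no fall (0.141%, with limma). For the 311 genes that rose with smoke plus silica, the median difference was 0.59 with both exposures, 0.41 with smoke alone and 0.26 with silica alone. Of these, 104 also passed with smoke alone, 19 with silica alone and 10 with each, while 198 passed in neither. For the 225 genes that fell, the medians were -0.49, -0.24 and -0.21, and 17 also passed with smoke alone. A gene that passed with both exposures and not with one is not thereby shown to differ between them, which was tested directly as follows.

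No gene passed in the interaction of smoke and silica (0% of the genes, with limma), the test of whether the combination differs from the sum of the exposures, and 318 genes had an unadjusted p under 0.05. The 5 smallest interaction p-values belonged to C3, Cxcl1, Card14, Bhlhe40 and Tent5b. Cxcl1 averaged 10.63 ± 0.37 (SD) with both exposures, 10.58 ± 0.17 with smoke, 10.20 ± 0.39 with silica and 8.46 ± 0.19 with air. Either exposure alone brought it close to the level reached with both, and the interaction was -1.69 ± 0.37 (SE; unadjusted p 0.000179, adjusted p 1). C3 averaged 12.79 ± 0.45 with both exposures, 12.89 ± 0.11 with smoke, 12.71 ± 0.29 with silica and 11.46 ± 0.39 with air, with an interaction of -1.35 ± 0.28 (unadjusted p 0.000102, adjusted p 1). Bhlhe40 averaged 8.80 ± 0.37 with both, 8.21 ± 0.09 with smoke, 8.99 ± 0.25 with silica and 7.26 ± 0.08 with air, with an interaction of -1.14 ± 0.28 (adjusted p 1). For Card14 the interaction was -0.75 ± 0.17 (adjusted p 1). Tent5b, which encodes a poly(A) polymerase, averaged 7.96 ± 0.50, 8.74 ± 0.29, 9.20 ± 0.04 and 8.62 ± 0.42 in the same order of groups, with an interaction of -1.36 ± 0.33 (adjusted p 1). All 5 estimates were negative, but these genes were picked by their p-values and none passed. The median interaction over all genes was -0.004.

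The comparisons with each exposure alone use the same 4 smoke plus silica rats as the comparison with air, so they are not independent of it. Against smoke alone, smoke plus silica had 2 rises and no fall (0.0141% of the genes), with an unadjusted p under 0.05 in 1179 genes by limma. Without rat 302 the count was 66. Cped1 was higher by 1.08 ± 0.13 (adjusted p 0.000619) and Arid5b, a chromatin-binding factor, by 0.59 ± 0.08 (adjusted p 0.00537). Arid5b read 8.03, 7.74, 7.94 and 7.89 with smoke plus silica, against 7.40, 7.35, 7.35 and 7.24 with air, a difference of 0.57 ± 0.08 (adjusted p 0.000496). Cped1 rose against air by 0.57 ± 0.13 (adjusted p 0.0174, up to 0.0597 without rat 104, 105, 602 or 603). That is less than its difference from smoke alone, because the smoke rats averaged below the air rats in Cped1. Rapgef3, the cyclic AMP sensor EPAC1, was the next gene against smoke at -0.63 ± 0.11 (adjusted p 0.0582), and it read 7.84, 8.07, 7.64 and 7.96 with smoke plus silica, against 8.59, 8.43, 8.42 and 8.43 with air. That fall of -0.59 ± 0.11 had an adjusted p of 0.00373, while smoke alone and silica alone differed from air by 0.04 and -0.05.

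Against silica alone, 1 gene passed (0.00703% of the genes) and it was Nr1d1, lower with both exposures, at a difference of -1.44 ± 0.22 (adjusted p 0.0181). Nr1d1 averaged 8.36 ± 0.52 (SD) with both exposures, 9.23 ± 0.10 with smoke, 9.80 ± 0.29 with silica and 9.75 ± 0.42 with air. Silica alone thus lay at the air level, smoke alone slightly below it, and the combination lowest, but the interaction of -0.92 ± 0.30 (SE) did not pass over all genes (unadjusted p 0.00645, adjusted p 1). The call against silica ended without rat 604, 502 or 503, when no gene passed. Without rat 302, 501, 602 or 605 there were 61, 16, 2 or 3 genes. Klf15, a glucocorticoid-responsive transcription factor, had a like order, with 9.10, 9.27, 9.02 and 9.35 in smoke plus silica rats, against 10.27, 9.98, 9.65 and 10.00 in air rats. It differed from air by -0.79 ± 0.16 (adjusted p 0.00861) and from silica by -0.93 ± 0.16 (adjusted p 0.0732), while smoke alone and silica alone differed from air by -0.05 and 0.13. Ctsk, Pld3 and Ttyh2, the remaining genes near the top against silica that rose against air, were higher than with silica by 1.18, 0.67 and 0.67, each with an adjusted p of 0.0732.

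**Figure D4:**
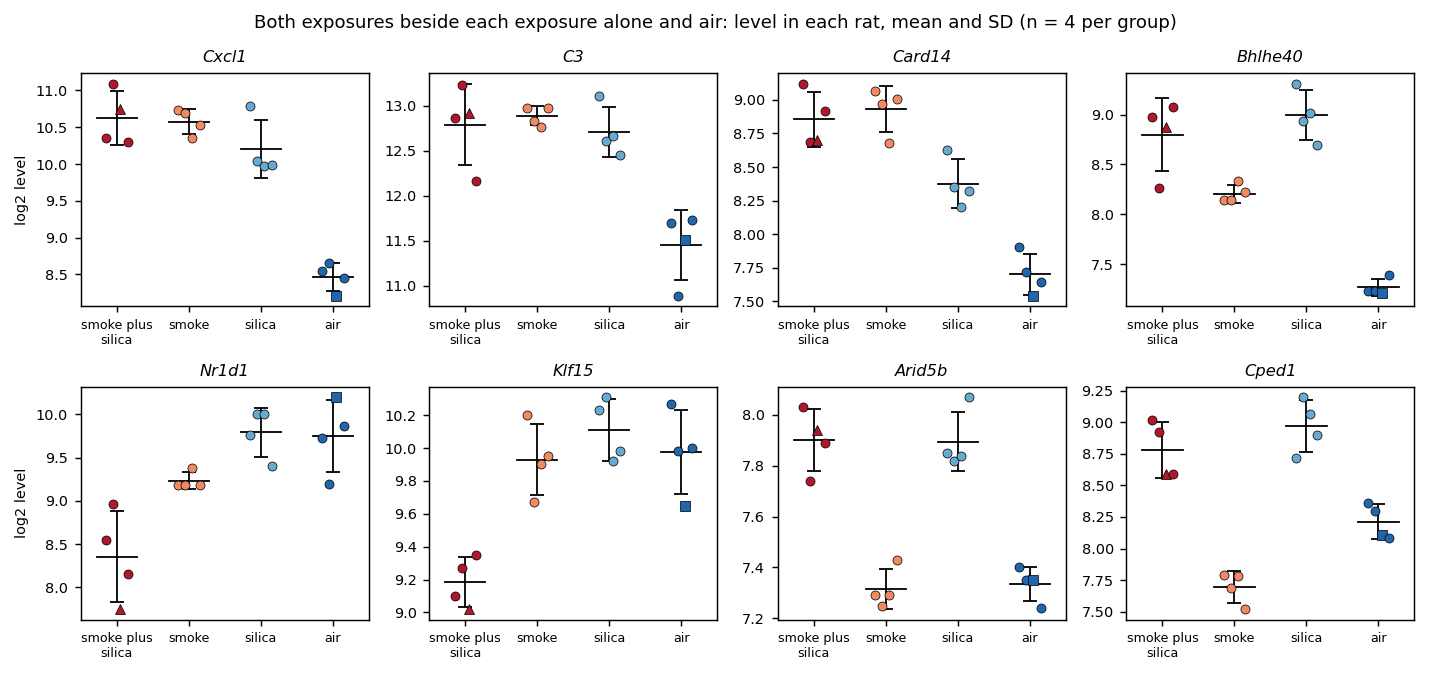
Log2 level of 8 genes (y axis, a separate scale in each panel) in the 4 rats of each of 4 groups, from left to right smoke plus silica (red), smoke (orange), silica (light blue) and air (dark blue), with group mean (line) and SD (bar). Triangles mark rat 604 and squares rat 104. For Cxcl1 and C3 the 3 exposed groups lie together above air, for Nr1d1 and Klf15 the smoke plus silica rats lie lowest, and Arid5b follows silica, with means of 7.90 with both, 7.31 with smoke, 7.89 with silica and 7.33 with air.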

How the data were processed

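Lung RNA of 24 male rats, 4 in each of 6 groups, was measured on Affymetrix Rat230_2 arrays, 1 array a rat. The deposited log2 values had been made by RMA, a method that corrects background, quantile-normalizes and summarizes per probe set, which the submitters' processing notes name without a version; array medians lay between 7.26 and 7.32. Of 31099 probe sets 57 controls were left out, and of the rest 20826 carried 1 gene symbol, 436 several and 9780 none in the platform annotation; 20758 matched RefSeq by Entrez ID. The probe set with the highest mean over 24 arrays stood for each of 14217 genes. No filter on low values was applied.

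Differences, standard errors and two-sided p-values came from limma 3.58.1 in R 4.3.3 (6 group means, 18 residual degrees of freedom, Benjamini-Hochberg over all genes, threshold 0.05); p-values measure the spread between rats, and precision is limited by the 4 arrays per group. The fit was also tested on simulated data with known changes and independent noise. Named genes were the 12 largest non-overlapping rises and falls, up to 4 genes of each of 31 lists by moderated statistic, the 5 smallest p-values of each other comparison and a fixed set of smoke, silica and tissue markers; genes outside this rule are marked as chosen after their values were seen. The comparison and lists were chosen with earlier results of these data known; 574 of 659 list entries were measured. Lists were counted, not tested. Promoters came from RefSeq (GRCr8). The alternatives changed the spread model, dim genes, probe sets, arrays, weights, scaling, RNA integrity number and rats.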

Additional observations from a re-analysis of the deposited data

Results flagged for a closer look

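In each group of 4, the values of the genes described were checked for a single rat standing apart, defined as a gap to the nearest rat that, as a share of the group's whole range, passes the 95% limit of Dixon's test for 4 values. Of 202 groups checked, 15 held such a rat, where chance gives about 1 in 20. The values below are log2 levels.

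Rat 604 stood apart from the other smoke plus silica rats in 3 genes. It was highest in Aurka at 7.82, with the others at 7.31 to 7.37, and in Krt5 at 8.69, with the others at 5.45 to 5.66. It was lowest in Cyp4b1 at 10.94, with the others at 11.99 to 12.09. The Aurka and Cyp4b1 calls were both lost without this rat. In the same group, rat 602 was highest in Myl7 at 7.47, with the others at 4.97 to 5.27, and rat 603 was lowest in Ttyh2 at 9.08, with the others at 9.31 to 9.35.

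Rat 104 stood apart from the other air rats in 3 genes. It was highest in Bpifa1 at 11.77, with the others at 6.93 to 7.03, and in the heart muscle calcium channel gene Ryr2 at 7.95, with the others at 5.18 to 5.41. It was lowest in Chia at 9.95, with the others at 11.90 to 12.18. Rat 105 was highest of the air rats in Bhlhe40 at 7.39 (others 7.21 to 7.23), in Gsr at 8.46 (others 7.96 to 8.03) and in Il1b at 9.65 (others 8.57 to 8.73). Rat 102 was highest in Cyp4b1 at 12.85 (others 12.61 to 12.64) and in Rapgef3 at 8.59 (others 8.42 to 8.43), and lowest in Ctsd at 12.25 (others 12.45 to 12.49). Rat 103 was highest in Pkib at 7.81 (others 7.30 to 7.37). The Bhlhe40, Ctsd, Pkib and Rapgef3 values of these air rats stayed outside the range of the smoke plus silica rats.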

How the results depend on the processing

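The number of genes that passed against air was 536. It ranged from 200 (without rat 604) to 547 (without rat 605) when 1 of the 8 rats was left out, and was 169 without rats 104 and 604. It was 1777 without rat 302, and 2477 with array quality weights (1072 rises and 1405 falls). A change of at least 1.5-fold was also met by 224. The 19 arrays with an RNA integrity number gave 120 genes with it as a covariate and 156 without, from fewer arrays. With limma no gene passed for the interaction except Gabre, seen afterwards, at -0.82 (adjusted p 0.0492) as 1 gene without rats 302, 104 and 604. Against smoke, 2 genes passed. The count was 5 with probe sets averaged per gene, 9 with only the arrays compared, 342 with weights, 66 without rat 302, 1 without rats 104 and 604, 14 without rats 302, 104 and 604, and 0 in both fits of 19 arrays (unadjusted p under 0.05 in 750 and 856 genes). Leaving out 1 rat gave 2 to 3. Against silica, 1 gene passed. The count was 17 among genes at or above the median level, 3 with averaged probe sets, 0 with only the arrays compared (1588 by unadjusted p), 250 with weights, 61 without rat 302, 3 without rats 302, 104 and 604, and 0 in both fits of 19 arrays (946 and 1024 by unadjusted p). Leaving out 1 rat gave 0 to 16. The causes of these shifts were not tested. Of 101 genes described, 76 passed against air. All 76 kept their direction under every alternative that tested them, and 33 passed in all of these. Of these calls 26 were lost without rat 604, 31 on the 19 arrays without the covariate and 37 on them with it. Of the 25 described genes that did not pass, 14 passed under at least 1 alternative. No paired analysis was possible because the rats carry no shared numbers.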

Other observations

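Several further genes did not pass although their groups did not overlap, a state found in 17.6% of all genes. RT1-DMa, which helps load peptides on class II molecules, read 9.49, 9.28, 9.31 and 9.55 in smoke plus silica rats, against 8.74, 9.03, 9.07 and 9.01 in air rats (difference 0.45 ± 0.13, limma adjusted p 0.0547, and 0.0148 without rat 302). Cfi, the complement factor I protease, read 9.05, 9.30, 10.21 and 7.76, against 7.38, 7.28, 7.65 and 6.83 in air rats (difference 1.79 ± 0.53, adjusted p 0.0639, and 0.0343 without rat 302 or 0.021 without rat 605). C1qb, a chain of complement C1q made by macrophages, differed by 0.52 ± 0.20 (adjusted p 0.159).

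The heart muscle list varied with 1 rat. Over its 24 measured genes the median difference was -0.74, and it was -0.13 without air rat 104, which was above all its group mates in 20 of the 24 genes. Cox8b, the muscle form of a cytochrome oxidase subunit, differed by -0.75 ± 0.23 (adjusted p 0.0716, and 0.0208 without rat 302), and by -0.52 without rat 104. How much adjoining heart or vessel muscle each tissue piece held was not tested.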
